A study of Mus musculus with 5 samples.

Results

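The Nodal and Activin signalling components are 9 mouse genes, Nodal, Lefty2, Tdgf1, Foxh1, Acvr1b, Acvr2a, Acvr2b, Smad2 and Smad3, taken by symbol from the 23951 genes of the deposited expression table. All 9 were found, and all 9 averaged 1 FPKM or more over the libraries, as did 11011 genes in all. FPKM counts sequenced fragments per length of transcript and size of library. RNA sequencing was run on 5 libraries, each the only library of its group. They were epiblast stem cells derived from embryonic stem cells (ESD-EpiSCs, here EpiSCs) left untreated, EpiSCs treated for 1.5 h with BMP-4 (10 ng/ml), EpiSCs treated for 24 h with the same dose, E14 mouse embryonic stem cells (ESCs) in LIF with BMP-4 at 10 ng/ml in a basal medium, and E14 ESCs in LIF with serum. EpiSCs stand for the primed and ESCs for the naive state of pluripotency. All 3 EpiSC cultures grew in N2B27 medium with FGF2 at 12 ng/ml and Activin A at 20 ng/ml on serum-coated plates, so a ligand of the pathway was added to every EpiSC culture, while the labels name no Activin A for ESCs. The ESCs in serum had it at 15%, with LIF at 1000 U/ml. For the other ESCs the labels name more than 1 basal medium, so BMP-4 and the medium differed together between the ESC libraries. All cells trace to the E14 line, per the labels, and the EpiSCs were made in culture, not taken from embryos.

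Nodal is a secreted ligand of the TGF-beta family. With the membrane-anchored co-receptor Cripto, encoded by Tdgf1, it binds a type II receptor (Acvr2a or Acvr2b) and the type I receptor ALK4, encoded by Acvr1b. Activin uses the same receptors without Cripto. The active receptor phosphorylates Smad2 and Smad3, which enter the nucleus with Smad4 and act on DNA with partners such as the forkhead factor Foxh1. Lefty2 is a secreted antagonist that is itself switched on by the pathway. In the mouse, Nodal signalling patterns the epiblast and the primitive streak, and Activin with FGF keeps cultured EpiSCs undifferentiated.

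With 1 library per group no spread between replicates exists, and no p-value is given. Where each of the 9 genes is described, its FPKM is followed in parentheses by the confidence interval deposited with it. For other genes the interval is given for some values only. Differences are of log2(FPKM + 1), a scale on which changes of low genes come out too small, and a gene is counted as higher or lower at 2-fold of FPKM + 1 or more. The depth, estimated from whole-read steps among low values, was about 9770000, 11100000 and 13400000 reads in EpiSCs untreated, after 1.5 h and after 24 h, and about 8710000 and 8510000 reads in ESCs in LIF with BMP-4 and in LIF with serum. At these depths the 9 genes rested on about 14.9 (Smad3, ESCs in LIF with serum) to 1722 (Tdgf1, ESCs in LIF with BMP-4) reads per kilobase of transcript. Between 10478 and 10779 genes per library reached 1 FPKM. Markers followed the labels: the summed level of 8 naive markers was 4.36 to 4.81 FPKM in EpiSCs, against 1543 and 1770 in ESCs, and that of 6 primed markers 399 to 637 FPKM in EpiSCs, against 62.8 and 71.1 in ESCs. Of 7 fibroblast markers, 1 reached 1 FPKM in each library and Dcn was listed at 0 in every library.

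Promoter sequences were matched in a RefSeq table (GRCm38.p6) for 6 of the 9 genes, Nodal, Tdgf1, Acvr1b, Acvr2a, Acvr2b and Smad3. The 250 bases before the annotated start are shown for Tdgf1, the gene with the largest range over the libraries, for Nodal, the ligand, and for Acvr2b, as an example of the receptor genes. Capitals mark matches, on either strand, to a loose form of the Foxh1 motif, AATNNACA, and to the Smad motif CAGAC. They lie at chr9:110946159-110946408 on the minus strand, chr10:61417722-61417971 on the plus strand and chr9:119401928-119402177 on the plus strand.
Tdgf1: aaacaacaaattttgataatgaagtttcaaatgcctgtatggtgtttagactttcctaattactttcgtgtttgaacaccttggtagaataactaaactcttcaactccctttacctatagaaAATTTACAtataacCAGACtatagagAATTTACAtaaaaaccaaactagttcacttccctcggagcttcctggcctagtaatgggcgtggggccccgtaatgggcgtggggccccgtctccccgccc
Nodal: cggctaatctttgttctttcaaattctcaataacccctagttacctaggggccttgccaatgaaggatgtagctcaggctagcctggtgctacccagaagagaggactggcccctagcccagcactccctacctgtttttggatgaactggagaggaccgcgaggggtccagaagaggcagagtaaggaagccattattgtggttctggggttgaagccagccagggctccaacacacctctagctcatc
Acvr2b: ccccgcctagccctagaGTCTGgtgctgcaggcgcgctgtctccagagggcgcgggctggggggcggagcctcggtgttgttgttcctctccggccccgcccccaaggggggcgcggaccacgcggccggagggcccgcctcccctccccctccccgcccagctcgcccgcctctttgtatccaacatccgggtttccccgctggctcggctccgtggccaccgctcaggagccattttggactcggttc

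Tdgf1 had 2 matches to AATNNACA, which both read AATTTACA and begin at positions -127 and -101 from the start site, with 1 CAGAC between them at -113. Of 32851 promoter windows of this length, 10.9% held AATNNACA and 42.2% held CAGAC. The Nodal window held neither, Acvr2a and Acvr2b each held 1 CAGAC, and the windows of Acvr1b and Smad3 held none of these. No window of the 6 held the strict form AATCCACA, which is in 0.718% of all windows. The GC content separated the receptor and Smad windows from the others: it was 78.8% for Acvr1b, 82.0% for Acvr2a, 72.8% for Acvr2b and 69.2% for Smad3, but 53.2% for Nodal and 42.0% for Tdgf1, with a median of 52.4% over all windows. Each receptor window also held the GC-rich Smad motif GGCGC (4 times in Acvr1b, 2 in Acvr2a and 3 in Acvr2b), as did 32.0% of all windows, and Nodal, Tdgf1 and Smad3 held it 0 times. The receptor windows are richer in GC than most windows, so the 32.0% does not compare directly with them. Such matches are letters in a window, not measured binding.

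The ligand gene Nodal (mm9 chromosome 10, 60880720 to 60888085) was expressed in all libraries. It stood at 27.9 FPKM (10.4 to 45.4) in untreated EpiSCs, 21.3 (7.14 to 35.5) after 1.5 h and 31.6 (11.9 to 51.2) after 24 h, against 16.5 (4.87 to 28.1) in ESCs in LIF with BMP-4 and 17.8 (5.49 to 30.2) in ESCs in LIF with serum. All 3 EpiSC values lay above both ESC values, yet every interval overlapped every other. Untreated EpiSCs differed from ESCs in LIF with serum by 0.62 and from ESCs in LIF with BMP-4 by 0.72 on the log2 scale, under 2-fold in both cases. Here and below, a lower value in bulk RNA can come from fewer cells that express a gene or from less RNA per cell, which cannot be told apart.

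Tdgf1 (Cripto; chromosome 9, 110842112 to 110848662) was the most abundant of the 9 genes in every library and differed most between them. It stood at 68.1 FPKM (31.8 to 104) in untreated EpiSCs, 69.5 (32.7 to 106) after 1.5 h and 77.0 (36.4 to 118) after 24 h, against 198 (110 to 285) in ESCs in LIF with BMP-4 and 116 (59.6 to 172) in ESCs in LIF with serum. The EpiSC values were close to each other and all below both ESC values. Untreated EpiSCs were 2.88-fold lower than ESCs in LIF with BMP-4 (log2 difference -1.53), and these intervals were apart. Against ESCs in LIF with serum the difference was -0.76, with overlapping intervals. The intervals were also apart between EpiSCs after 1.5 h and ESCs in LIF with BMP-4, and for no other pair of libraries among the 9 genes. Of the 36-base words in Tdgf1 transcripts, 11.5% also occur in its annotated pseudogenes Tdgf1-ps1 or Tdgf1-ps2, so reads from these could count towards it.

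**Figure D1:**
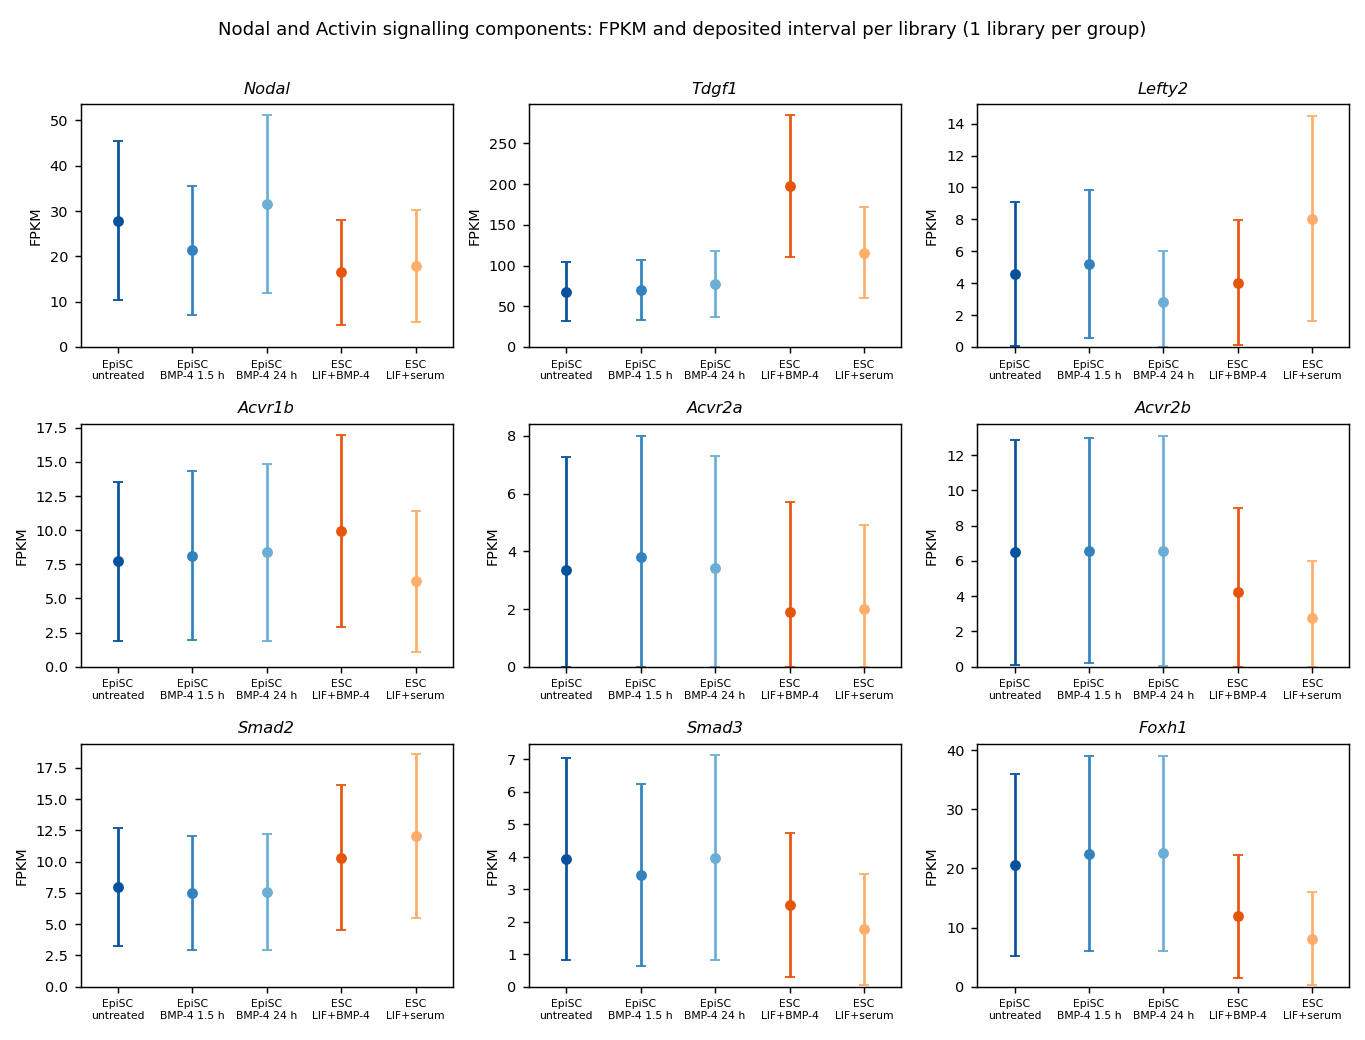
FPKM of each of the 9 genes (vertical axes, linear from 0, a separate scale for each gene) in the 5 libraries (horizontal axes); points are the deposited values and bars the deposited confidence intervals. Tdgf1 is lowest in the EpiSC libraries at 68.1 to 77.0 FPKM, while Foxh1, Acvr2b and Smad3 are lowest in ESCs in LIF with serum; most bars overlap.

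The antagonist gene Lefty2 (chromosome 1, 182823250 to 182829233) did not separate the cell types. It stood at 4.59 FPKM (0.0594 to 9.11) in untreated EpiSCs, 5.19 (0.558 to 9.82) after 1.5 h and 2.82 (0 to 6.0) after 24 h, against 4.04 (0.119 to 7.96) in ESCs in LIF with BMP-4 and 8.05 (1.61 to 14.5) in ESCs in LIF with serum. The highest and the lowest value differed by 2.37-fold of FPKM + 1, with overlapping intervals. Its neighbour Lefty1 (182865170 to 182868532), which encodes a closely related Nodal antagonist, had another course: 69.9 FPKM (31.1 to 109) in untreated EpiSCs, 35.7 (13.1 to 58.4) after 1.5 h and 8.42 (0.916 to 15.9) after 24 h, against 2.74 (0 to 6.64) in ESCs in LIF with BMP-4 and 3.34 (0 to 7.17) in ESCs in LIF with serum. Lefty2 thus stood at 0.0656, 0.145 and 0.335 times the level of Lefty1 in untreated EpiSCs, after 1.5 h and after 24 h, and at 1.47 and 2.41 times that level in ESCs in LIF with BMP-4 and with serum. Of the 36-base words in Lefty2 transcripts, 15.7% also occur in Lefty1 transcripts, and 23.5% of those of Lefty1 in Lefty2, so part of the reads could be split either way. The sum of both genes, 74.5, 40.9 and 11.2 FPKM over the EpiSC libraries and 6.78 and 11.4 FPKM in ESCs in LIF with BMP-4 and with serum, followed Lefty1 in EpiSCs.

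**Figure D2:**
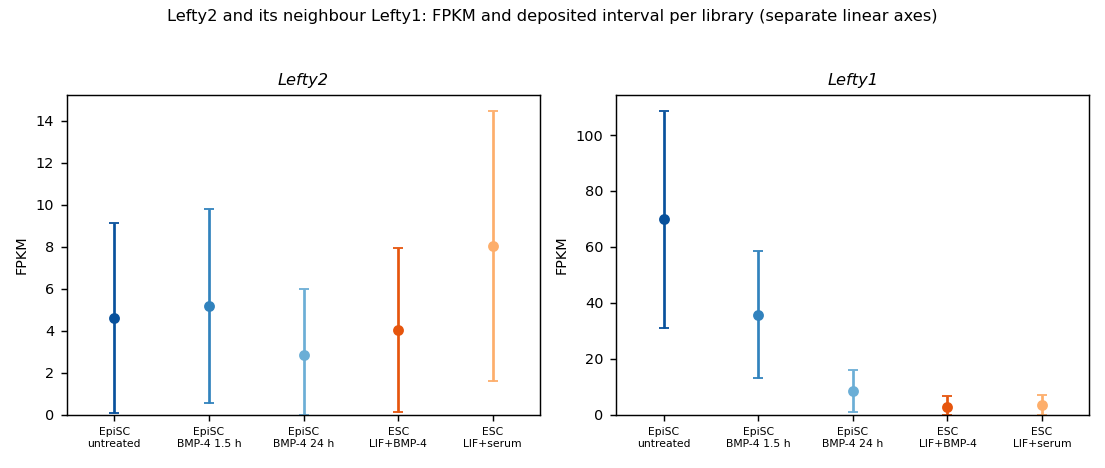
FPKM of Lefty2 (left) and Lefty1 (right) in the 5 libraries, with the deposited confidence intervals as bars; both axes are linear from 0 and differ in scale. Lefty2 stays between 2.82 and 8.05 FPKM, while Lefty1 ranges between 2.74 FPKM in ESCs in LIF with BMP-4 and 69.9 FPKM in untreated EpiSCs.

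Among the receptors, the type II genes stood higher in EpiSCs and the type I gene did not. Acvr2a (chromosome 2, 48669629 to 48804787) stood at 3.36 FPKM (0 to 7.25), 3.81 (0 to 8.0) and 3.43 (0 to 7.30) in EpiSCs untreated, after 1.5 h and after 24 h, against 1.89 (0 to 5.70) in ESCs in LIF with BMP-4 and 2.00 (0 to 4.91) in ESCs in LIF with serum. Acvr2b (chromosome 9, 119311619 to 119342624) stood at 6.48 FPKM (0.0999 to 12.9), 6.59 (0.186 to 13.0) and 6.57 (0.045 to 13.1) in the same EpiSC libraries, against 4.22 (0 to 8.99) and 2.76 (0 to 6.01) in ESCs in LIF with BMP-4 and with serum. For both type II genes the EpiSC values exceeded the ESC values and all intervals overlapped. Acvr2b differed by 0.99 between untreated EpiSCs and ESCs in LIF with serum, just under 2-fold, and it passed 2-fold with a pseudocount of 0.5 (1.10) and with each scaling tried (1.00 to 1.09). Acvr2b, like Acvr1b, shared 0% of its 36-base words with other genes, whereas Acvr2a shared 7.23% with Orc4, whose locus overlaps it.

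Acvr1b (ALK4; chromosome 15, 101004556 to 101043032) stood at 7.71 FPKM (1.89 to 13.5) in untreated EpiSCs, 8.14 (1.94 to 14.3) after 1.5 h and 8.37 (1.92 to 14.8) after 24 h, against 9.94 (2.90 to 17.0) in ESCs in LIF with BMP-4 and 6.26 (1.07 to 11.4) in ESCs in LIF with serum. The EpiSC values lay between the ESC values, and no library differed from another by more than 1.51-fold of FPKM + 1. Per length, Acvr1b exceeded Acvr2b by 1.19-fold to 1.27-fold in the EpiSC libraries and by 2.35-fold and 2.27-fold in ESCs in LIF with BMP-4 and with serum. The deposited bounds allow a ratio of 0.147 to 136 for untreated EpiSCs. For ESCs in LIF with BMP-4 and with serum they allow 0.322 and 0.178 upwards, without upper limit, so these ranges overlap.

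The signal transducers differed in opposite directions. Smad2 (chromosome 18, 76401355 to 76471401) stood at 7.94 FPKM (3.22 to 12.6), 7.51 (2.96 to 12.1) and 7.57 (2.95 to 12.2) in EpiSCs untreated, after 1.5 h and after 24 h, against 10.3 (4.51 to 16.1) in ESCs in LIF with BMP-4 and 12.0 (5.46 to 18.6) in ESCs in LIF with serum. Smad3 (chromosome 9, 63494574 to 63605801), which unlike the main form of Smad2 binds DNA directly, stood at 3.92 FPKM (0.810 to 7.04), 3.43 (0.631 to 6.22) and 3.96 (0.813 to 7.11) in those EpiSC libraries, against 2.52 (0.301 to 4.74) and 1.76 (0.0539 to 3.46) in ESCs in LIF with BMP-4 and with serum. Each difference was under 2-fold, and all intervals overlapped within each gene. Set per length within a library, where scaling cancels, Smad3 stood at 0.495, 0.456 and 0.524 times the level of Smad2 in the EpiSC libraries and at 0.244 and 0.146 times in ESCs in LIF with BMP-4 and with serum. The deposited bounds allow 0.0641 to 2.18 for untreated EpiSCs and 0.00289 to 0.634 for ESCs in LIF with serum, so these ranges overlap. The sum of both genes varied less, between 10.9 and 11.9 FPKM in EpiSCs against 12.8 and 13.8 FPKM in ESCs.

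The nuclear partner gene Foxh1 (chromosome 15, 76498654 to 76500378) stood at 20.6 FPKM (5.16 to 36.1) in untreated EpiSCs, 22.5 (5.99 to 39.1) after 1.5 h and 22.6 (6.01 to 39.1) after 24 h, against 11.9 (1.44 to 22.3) in ESCs in LIF with BMP-4 and 8.07 (0.190 to 15.9) in ESCs in LIF with serum. EpiSCs were above both ESC libraries, and untreated EpiSCs were 2.38-fold higher than ESCs in LIF with serum (log2 difference 1.25) and 1.68-fold higher than ESCs in LIF with BMP-4 (0.75). The intervals overlapped. Per length, Foxh1 stood at 2.60, 3.00 and 2.98 times the level of Smad2 in the EpiSC libraries, against 1.15 times in ESCs in LIF with BMP-4 and 0.67 times in ESCs in LIF with serum. The deposited bounds allow 0.408 to 11.2 for untreated EpiSCs and 0.0102 to 2.92 for ESCs in LIF with serum, which overlap.

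Untreated EpiSCs were compared with ESCs to set the primed beside the naive state. Cell state and medium, with Activin A named for EpiSCs only, differed together and cannot be told apart. Against ESCs in LIF with serum, 1 of the 9 genes (Foxh1) was at least 2-fold higher and 0 were lower, while 21.1% of all genes were 2-fold apart in that comparison (11.6% higher and 9.55% lower). Against ESCs in LIF with BMP-4, 1 of 9 (Tdgf1) was lower and 0 higher, where 21.0% of all genes were 2-fold apart (11.0% higher and 10.0% lower). Intervals apart with a 2-fold difference were seen for 0 and 1 of the 9 genes in these comparisons, against 5.52% and 5.5% of all genes. The median log2 difference of the 9 genes was 0.54 against ESCs in LIF with serum and 0.48 against ESCs in LIF with BMP-4, beside -0.01 and 0.00 over all genes. In size regardless of direction, the median was 0.70 and 0.52 for the 9 genes, beside 0.43 and 0.41 over all genes. These comparisons share the untreated EpiSC library. At a lower limit of 1.5-fold, 6 of the 9 genes were apart from ESCs in LIF with serum, against 38.3% of all genes, and 4 from ESCs in LIF with BMP-4, against 37.6%. With all libraries used, 5 genes (Nodal, Foxh1, Acvr2a, Acvr2b and Smad3) had every EpiSC value above both ESC values, as had 34.9% of all genes, and 2 (Tdgf1 and Smad2) had every EpiSC value below them, as had 35.7% of all genes. In all 7 of 9 genes were without overlap, beside 70.5% of all genes, so the lack of overlap was about as frequent as in the background.

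**Figure D3:**
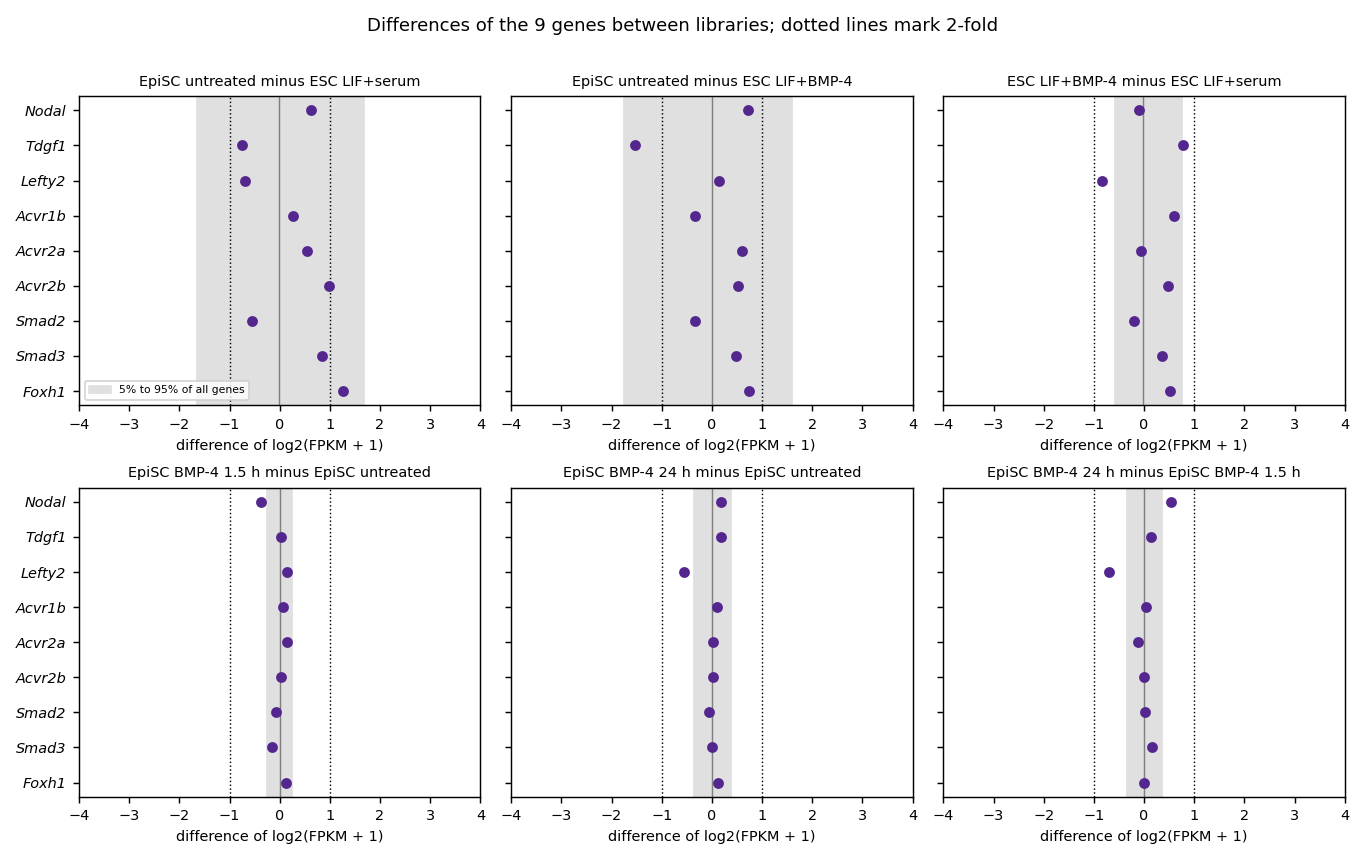
Differences of log2(FPKM + 1) (horizontal axes, named library minus the other) for the 9 genes in 6 comparisons; the grey band spans the 5% to 95% range of all genes averaging 1 FPKM or more, the solid line is their median and dotted lines mark 2-fold. In the EpiSC comparisons with BMP-4 the points lie near 0 except Nodal and Lefty2, which stayed within 2-fold.

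Between the ESC media, 0 of the 9 genes were 2-fold apart, against 3.89% of all genes. The largest differences between ESCs in LIF with BMP-4 and ESCs in LIF with serum were those of Lefty2 at -0.84 and Tdgf1 at 0.77 on the log2 scale, larger in size than 94.2% and 92.7% of all genes. Acvr1b followed at 0.59 and Foxh1 at 0.51, while Nodal differed by -0.11 and Acvr2a by -0.06. At 1.5-fold, 3 of 9 were apart, against 13.2% of all genes. The median size was 0.47 for the 9 genes, beside 0.22 over all genes. All intervals overlapped.

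Treatment of EpiSCs with BMP-4 asked how the primed state responds to that signal while Activin A is present. After 1.5 h and after 24 h, 0 of the 9 genes were 2-fold apart from untreated EpiSCs, against 0.418% and 1.18% of all genes, and 0 between 24 h and 1.5 h, against 1.04%. At 1.5-fold, 0 of 9 were apart from untreated EpiSCs after 1.5 h (1.18% of all genes) and after 24 h (3.94%), and 1 (Lefty2) between 24 h and 1.5 h (3.35%). After 1.5 h the largest difference was that of Nodal, -0.37, larger in size than 95.9% of all genes, and the other 8 lay between -0.15 and 0.15. After 24 h Nodal differed by 0.17, and the largest difference was that of Lefty2, -0.55, larger in size than 95.5% of all genes. Between 24 h and 1.5 h the difference was 0.54 for Nodal and -0.70 for Lefty2. These comparisons share libraries, so a high or low value in 1 of them enters more than 1 difference. The deposited bounds allow a difference of -2.51 to 1.68 for Nodal after 1.5 h and of -3.34 to 2.72 for Lefty2 after 24 h. The other genes were nearly level over the EpiSC libraries: Acvr2b varied by 1.01-fold, Smad2 by 1.05-fold, Acvr1b by 1.08-fold and Foxh1 by 1.09-fold of FPKM + 1. The summed level of 4 streak and mesoderm markers (T, Mesp1, Cdx2 and Evx1) was 13.7 FPKM in untreated EpiSCs, 13.3 after 1.5 h and 116 after 24 h, with all 4 at 1 FPKM or more after 24 h. T alone, which is also among the targets described below, made up 11.9, 10.6 and 89.2 FPKM of these sums. The sum of the 6 primed markers was 637 FPKM in untreated EpiSCs, 570 after 1.5 h and 399 after 24 h, with 3 of 6 at least 2-fold lower after 24 h than untreated. These 3 include Otx2, which is also among the targets, at 30.1 FPKM untreated and 8.21 FPKM after 24 h. The part of these shifts in the 24 h values of Nodal and Lefty2 was not tested.

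The rest of the pathway was described with 6 lists of 48 genes in all. With untreated EpiSCs set against ESCs in LIF with serum, the shares over all genes were 11.6% higher and 9.55% lower, or 21.1% either way. Among 8 other ligand genes of the TGF-beta, Activin and Nodal branch, 2 were lower and 0 higher in that comparison (median log2 difference 0.04). Of the 8, 3 averaged 1 FPKM or more, with both lower genes among these 3. The shares of all genes cover only genes at that level, so they do not compare directly with 2 of 8. The lower genes were Inhbb and Gdf3. Inhbb, which encodes the subunit of Activin B, stood at 0.302 FPKM in untreated EpiSCs, against 24.2 in ESCs in LIF with serum. Gdf3, a Nodal-related ligand gene, stood at 0.840 FPKM against 36.2. Both also stood low after 1.5 h and 24 h (0.104 and 0.0683 FPKM for Inhbb, 1.02 and 0.945 FPKM for Gdf3) and high in ESCs in LIF with BMP-4 (18.3 and 32.5 FPKM), and their intervals were apart. Inhba, the subunit of Activin A, was at 0.0637 FPKM (0 to 0.259) after 1.5 h and was listed at 0 in the other 4 libraries. Of 3 proprotein convertases, which cleave such ligands to their active form, Pcsk6 was 7.94-fold lower, at 1.41 FPKM in untreated EpiSCs against 18.2 FPKM in ESCs in LIF with serum, with intervals apart. Furin stood the other way, at 4.27 FPKM against 1.56 FPKM, with overlapping intervals.

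Of 5 other receptor and co-receptor genes, 2 were higher, Cfc1 and Tgfbr3, and 0 lower in that comparison (median 0.85), where 11.6% of all genes were higher. Of the 5, 3 averaged 1 FPKM or more, with both higher genes among these 3. The share covers only genes at that level, so it does not compare directly with 2 of 5. Tgfbr3, a co-receptor gene of TGF-beta, stood at 3.25 FPKM in untreated EpiSCs against 0.241 FPKM in ESCs in LIF with serum. Cfc1, which encodes Cryptic, a co-receptor related to Cripto, stood at 7.25 FPKM (0 to 15.4) in untreated EpiSCs, 11.6 (0.325 to 22.8) after 1.5 h and 9.42 (0.0558 to 18.8) after 24 h and was listed at 0 in both ESC libraries. Tdgf1 was lower and Cfc1 higher in all 3 EpiSC libraries than in both ESC libraries, and per length Tdgf1 exceeded Cfc1 in each library. Tgfbr1, the type I receptor gene of TGF-beta, stood at 10.1 FPKM in untreated EpiSCs against 6.24 FPKM in ESCs in LIF with serum. Its intervals overlapped. Of 8 antagonist genes, 4 were higher, Cer1, Lefty1, Fst and Bambi, and 0 lower (median 1.01), beside 11.6% and 9.55% of all genes. Of the 8, 7 averaged 1 FPKM or more. Intervals were apart for Cer1, Lefty1 and Fst and overlapped for Bambi. Fst, which encodes the Activin-binding protein follistatin, stood at 28.2 FPKM (10.6 to 45.8) in untreated EpiSCs, 21.3 (7.39 to 35.3) after 1.5 h and 57.2 (27.0 to 87.4) after 24 h, against 1.31 (0 to 3.11) in ESCs in LIF with BMP-4 and 5.40 (0.562 to 10.2) in ESCs in LIF with serum. All 3 EpiSC values of Fst lay above both ESC values, with the interval of untreated EpiSCs apart from those of both ESC libraries.

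Of 13 Smad cofactors and negative regulators, 2 were higher (Skil and Tgif2) and 1 lower (Tgif1) in untreated EpiSCs set against ESCs in LIF with serum, and 10 lay within 2-fold (median 0.18). The intervals overlapped for Skil, Tgif2 and Tgif1. These 3 of 13 are near the 21.1% of all genes that were 2-fold apart. Against ESCs in LIF with BMP-4, where 21.0% of all genes were 2-fold apart, Skil and Pmepa1 were higher and Nedd4l lower. The intervals overlapped for each of them. Pmepa1, a negative regulator of Smad signalling, stood at 16.5 FPKM in untreated EpiSCs against 4.26 FPKM, and Nedd4l, a ubiquitin ligase gene, at 2.28 FPKM against 7.40 FPKM. Smad4, the shared partner of Smad2 and Smad3, stood at 33.0 FPKM in untreated EpiSCs against 20.9 FPKM in ESCs in LIF with serum. Its intervals overlapped. Of 16 Nodal and Activin targets other than Lefty2, 13 were higher and 1 (Nanog) lower, beside 11.6% and 9.55% of all genes. These counts are for untreated EpiSCs against ESCs in LIF with serum, where cell state and medium (Activin A named for EpiSCs only) differed together. The list was chosen with earlier results of these data known. It holds genes that also mark the primed state or the streak, such as Otx2 and T. A high count was thus likely beforehand, and the share over all genes gives no test of it. The median of the targets was 3.30, beside -0.01 over all genes. The largest difference was that of Fgf8, a growth factor gene of the primitive streak, at 61.2 FPKM in untreated EpiSCs against 0.272 FPKM in ESCs in LIF with serum. Markers of other cells moved with this comparison: the summed level of 7 primitive and visceral endoderm markers was 6.62 to 10.7 FPKM in EpiSCs, against 1.33 and 0.889 FPKM in ESCs in LIF with BMP-4 and with serum, with 4 of 7 at 1 FPKM or more in each EpiSC library and 0 of 7 in either ESC library. Among them Afp was at most 0.0368 FPKM in any library, and Sox17 is on both lists. The sum of 4 neural markers was 17.3 to 25.3 FPKM in EpiSCs, against 45.2 and 77.5 FPKM in ESCs. Tubb3 alone made up 16.7 to 24.8 FPKM of these sums in EpiSCs and 35.3 and 71.9 FPKM in ESCs. Of the 4, 1 reached 1 FPKM in each EpiSC library and 3 in each ESC library. The part of the endoderm and neural markers in the values of the targets was not tested. After 24 h of BMP-4, 6 of these targets were lower than in untreated EpiSCs (Cer1, Lefty1, Gsc, Foxa2, Otx2 and Lhx1), 1 (T) was higher and 9 lay within 2-fold (median -0.02), where 1.18% of all genes were 2-fold apart. The intervals were apart for Cer1, Lefty1, Gsc and T and overlapped for Foxa2, Otx2 and Lhx1. The 9 components and the 13 cofactors all lay within 2-fold, as did nearly all genes. Some of these targets respond to other signals too, and 5 of them are on another of the lists. Several were listed at 0 in ESCs, which enters the medians through FPKM + 1.

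**Figure D4:**
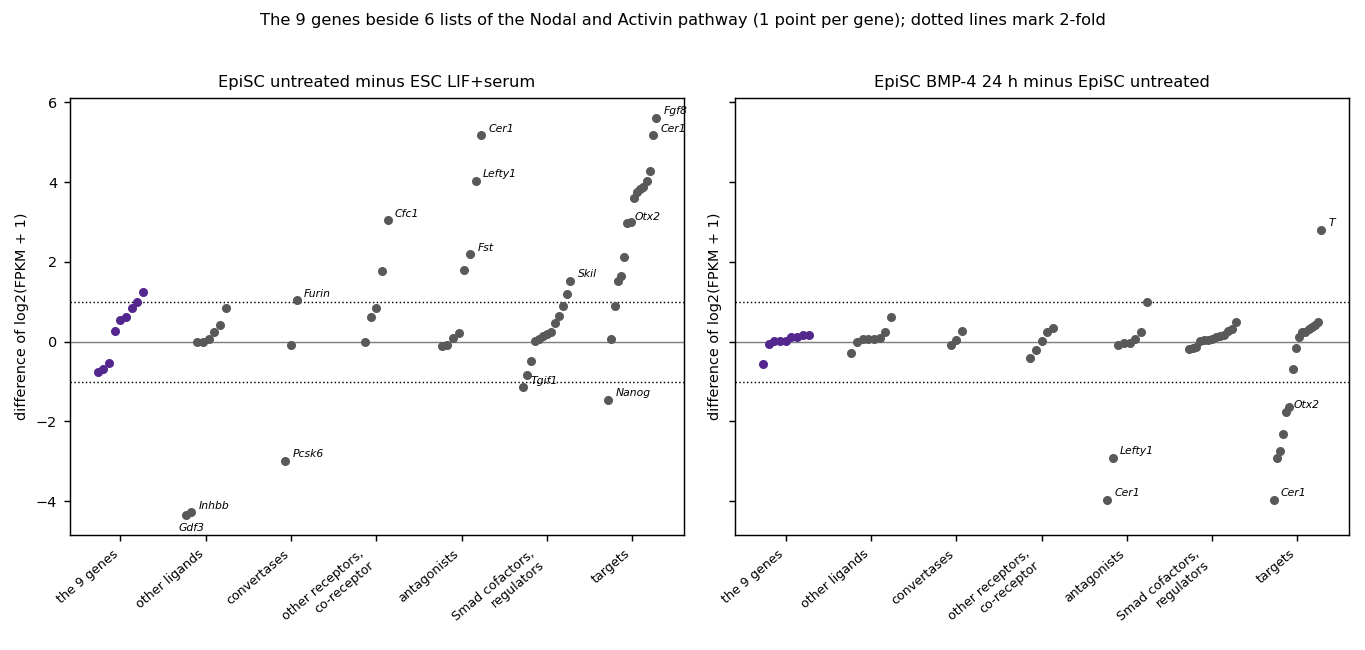
Differences of log2(FPKM + 1) (vertical axes) of the 9 genes and of the genes in 6 lists of the pathway (1 point per gene, sorted within a list; a gene on more than 1 list has a point in each); left, untreated EpiSCs minus ESCs in LIF with serum; right, EpiSCs after 24 h of BMP-4 minus untreated EpiSCs; dotted lines mark 2-fold. The 9 genes lie between -0.76 and 1.25 on the left and between -0.55 and 0.18 on the right, while the targets reach 5.61 on the left and -3.96 on the right.

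For the 4 members whose log2 level spanned at least 1 over the 5 libraries, the 3 genes with the nearest profile were taken by the distance between mean-centred log2 profiles over those 5 libraries, a description among 10462 genes. Nearest to Tdgf1 were Plcb3 (distance 0.10), Sumf2 (0.13) and Rap1gap (0.14). Plcb3 stood at 17.0, 18.2 and 20.9 FPKM in EpiSCs untreated, after 1.5 h and after 24 h, against 50.5 and 31.0 FPKM in ESCs in LIF with BMP-4 and with serum. Nearest to Foxh1 were Dnajc3 (0.11), Vav2 (0.11) and Hsd17b7 (0.13), and nearest to Acvr2b were Kif3c (0.06), Rabl2 (0.07) and Kcnn1 (0.07). Lefty2 had no profile as close, with Ap1s3 (0.26), Raet1a (0.29) and Arxes1 (0.33) as its nearest. With 5 libraries many genes share a profile by the shape of the ESC and EpiSC difference alone.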

How the data were processed

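RNA of 5 libraries, 1 per group, was measured by sequencing of poly(A) RNA in directional libraries, per the labels' protocols. The deposited table gives FPKM per gene with a lower and an upper bound and a status, per the file headers. The authors used TopHat and Cufflinks with the mm9 build, and Picard and SAMtools, per the submitters' processing notes. The sources used here do not give the annotation, the scaling between libraries or the model behind the bounds, which are 95% limits by the definition of Cufflinks. Widths of these bounds are no spread between cultures. An FPKM listed at 0 can be a failed estimate, since the widely expressed gene Hmgcs1 is listed at 0 in all libraries, so no fold is given against 0. All 9 members had the status OK, and 8 genes of the table did not in at least 1 library and were left out where that library was used. Mapped positions were written from 1 (the file counts starts from 0).

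Differences were taken in 6 comparisons as log2(FPKM + 1) with pandas 2.3.3 and numpy 2.4.6 in Python 3.11.15, and shares of all genes were taken over those averaging 1 FPKM or more. The step was tested on simulated data with exact folds and no noise, which cannot show how far single libraries vary. Depth was estimated from genes below 0.5 FPKM that GENCODE M21 gives 1 transcript, above 1500 nt, as the total with the highest score. The score was the number of them within 0.03 of 1, 2 or 3 reads, less the number clearly below 1 read. At the chosen total 96 to 117 of 514 to 600 genes per library lay within 0.03 of these whole reads, so depths are approximate. Shared sequence was counted in words of 36 bases over GENCODE M21 transcripts, on both strands, and the read length was not used. The sources used here do not say whether counting used strand. The alternatives were pseudocounts of 0.1 and 0.5, 3 scalings (median, upper quartile and total FPKM), a filter on means of 5 FPKM, no filter, a limit of 1.5-fold, intervals apart and the sum of Lefty1 and Lefty2. The members and the gene lists were chosen with earlier results of these data known. The text names all members, Lefty1, list genes at least 2-fold apart with at least 5 FPKM in a compared library (up to 4 each way), and the 3 nearest profiles. Furin, Inhba, Tgfbr1, Tgfbr3, Smad4 and the 24 h targets Otx2 and Lhx1 were named after their values were seen, and candidates for nearest profiles left out small RNAs and genes named Gm or Rik.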

Additional observations from a re-analysis of the deposited data

How the results depend on the processing

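No paired analysis was possible because no group has a second library, and none could be left out in turn. In untreated EpiSCs against ESCs in LIF with serum, 1 of the 9 genes was at least 2-fold apart (21.1% of all genes). With a pseudocount of 0.1 the count became 3 (Foxh1, Acvr2b and Smad3), beside 26.1% of all genes. It was 2 (Foxh1 and Acvr2b) with a pseudocount of 0.5 (23.8% of all genes) or any of the 3 scalings (21.1% to 21.5%). Where intervals had to be apart it was 0, beside 5.52% of all genes. At 1.5-fold it was 6, a limit that 38.3% of all genes passed. At 1.5-fold the counts were 4 against ESCs in LIF with BMP-4 (37.6% of all genes), 3 between the ESC media (13.2%) and 1 between 24 h and 1.5 h of BMP-4 (3.35%). The sum of Lefty1 and Lefty2 was also set in place of Lefty2. The counts were then 2 in untreated EpiSCs against ESCs in LIF with serum (21.1% of all genes) and 2 against ESCs in LIF with BMP-4 (21.0%). They were 1 after 24 h against untreated EpiSCs (1.18%) and 1 after 24 h against 1.5 h (1.04%). The counts rose because Lefty1 is the more abundant in EpiSCs. The log2 difference of that sum was 2.61 for untreated EpiSCs against ESCs in LIF with serum and -2.63 after 24 h. The 5 genes above and the 2 below ESCs were the same under the 3 scalings and with untreated EpiSCs alone, checks added after the data were seen. Among 270 member differences under the pseudocounts and scalings, 2 changed sign, both within 0.01 of 0, and 6 crossed 2-fold, all for Acvr2b or Smad3. With a pseudocount of 0.1, also added later for the lists, the ligand genes 2-fold apart were 4 instead of 2 between untreated EpiSCs and ESCs in LIF with serum (26.1% of all genes), 6 instead of 3 against ESCs in LIF with BMP-4 (25.6%) and 1 instead of 0 after 24 h (2.69%), and the targets 2 instead of 0 between the ESC media (7.99%). These shares cover only genes averaging 1 FPKM or more, as 3 of the 8 ligand genes did. They do not compare directly with the ligand counts. With no filter on low values the share of all genes 2-fold apart was 10.8% instead of 21.1% for untreated EpiSCs against ESCs in LIF with serum. The depth behind a member was lowest for Smad3 in ESCs in LIF with serum, at about 14.9 reads per kilobase.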
